A study of Mus musculus with 46 samples.

Results

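The genes described here encode the proteins of the cytosolic ribosome, followed in mouse liver through injury by carbon tetrachloride (CCl4) and recovery. They were taken by symbol (Rpl or Rps with a number and at most 1 of the letters a, x, y and l, with Rplp0, Rplp1, Rplp2 and Rpsa added and the Rps6k kinases left out). A gene also needed a probe set that names it alone, and its brightest such probe set over all arrays was used. This gave 46 of the 18193 genes with such a probe set. Of the 46, 22 encode proteins of the large subunit, 22 of the small subunit and 2 of the acidic stalk. Of these, 42 passed the filter on low values and were tested among 13239 genes. The other 4 (Rps16, Rpl14, Rpl3l and Rpl39l) had only dim single-gene probe sets, which exceeded the filter level of 5.56 on 4 arrays for Rpl14 and on 0 for the other 3. In RefSeq 83 mouse genes match the symbol rule, and 37 of them have no probe set of their own on the array.

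Each cytosolic ribosome carries 1 copy of most of its proteins beside the ribosomal RNAs, and the large and small subunits are built in the nucleolus and joined on an mRNA. The mRNAs of these proteins are abundant and begin with a run of pyrimidines, the TOP tract, through which signalling by the kinase mTOR sets how much of them is translated. The arrays measure RNA and not its translation. After liver injury hepatocytes regrow, and ribosome production is part of that growth.

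Livers came from male C57BL/6N mice aged 8 to 10 weeks. Each treated mouse received 1.6 g/kg CCl4 in olive oil as 1 intraperitoneal injection, and hepatocytes turn this solvent into a toxic radical, mainly around the central veins. Livers were taken at 2 h, 8 h, 1 d, 2 d, 4 d, 6 d, 8 d and 16 d, with 6 arrays for the last of these and 5 for each other time and for the controls, 46 Affymetrix arrays in all. Controls are untreated mice, per the series' design, although the treatment label of the control arrays also names CCl4. The injection and the oil are therefore part of every comparison with control. Whether the numbered arrays of a group are separate animals is not said in the labels, and p-values therefore reflect the spread between arrays alone, which may be technical. Values are log2 expression, a difference of 1 is a factor of 2, and a value after ± is the limma standard error of the log2 fold change, except where it is given as an SD. A gene is called where its Benjamini-Hochberg adjusted p from limma is under 0.05.

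The hepatocyte gene Alb, which encodes albumin, was read at a control mean of 14.8, close to the highest value on the arrays of 14.9. Among the 42 tested genes 34 had a mean above 10 over all arrays, which places each at or above percentile 98.0 of genes. Brightness of different probe sets does not give the order of the genes' abundance. The difference between the 3 prime and 5 prime Gapdh control probe sets, which reflects how intact the RNA is, was 0.347 ± 0.0646 (SD, n = 5) in controls and averaged 0.136 to 0.199 from 2 h to 4 d. With that value as a covariate 13 genes were called higher at 8 h, 40 at 1 d and 39 at 2 d, against 19, 40 and 39 without it.

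Cytosolic ribosomal protein mRNAs rose together at 1 d and 2 d and were back near control by 4 d. The F-test over all 8 times called 42 of 42, against 83.4% of all genes. At 1 d 40 of the 42 tested genes were called higher and 0 lower, against 25.0% of all tested genes higher and 25.1% lower. The median log2 fold change was 0.61, a 1.53-fold difference, and the interquartile range was 0.50 to 0.75. Over all tested genes the median was -0.04. At 2 d 39 were called higher and 0 lower, against 21.1% of all genes higher and 18.9% lower (17.0% and 23.8% after quantile normalization), with a median of 0.55. Counts of lower genes were also 0 at an unadjusted p under 0.05 at both times. In 38 genes every array at 1 d lay above every control array (16.7% of all genes), and in 37 at 2 d (15.7%). In size, by the probe set used for each gene, 25 of the 42 tested genes reached 1.5-fold at 1 d and 0 reached 2-fold. Rpl14, which did not pass the filter and was not tested, was 1.19 above control on average at 1 d, on a dim probe set. Other probe sets of the same genes gave larger or smaller changes, such as 1.59 for Rpl13a where the one used gave 0.76. In bulk tissue more RNA per cell and more cells of a type that holds much of it cannot be told apart.

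**Figure D1:**
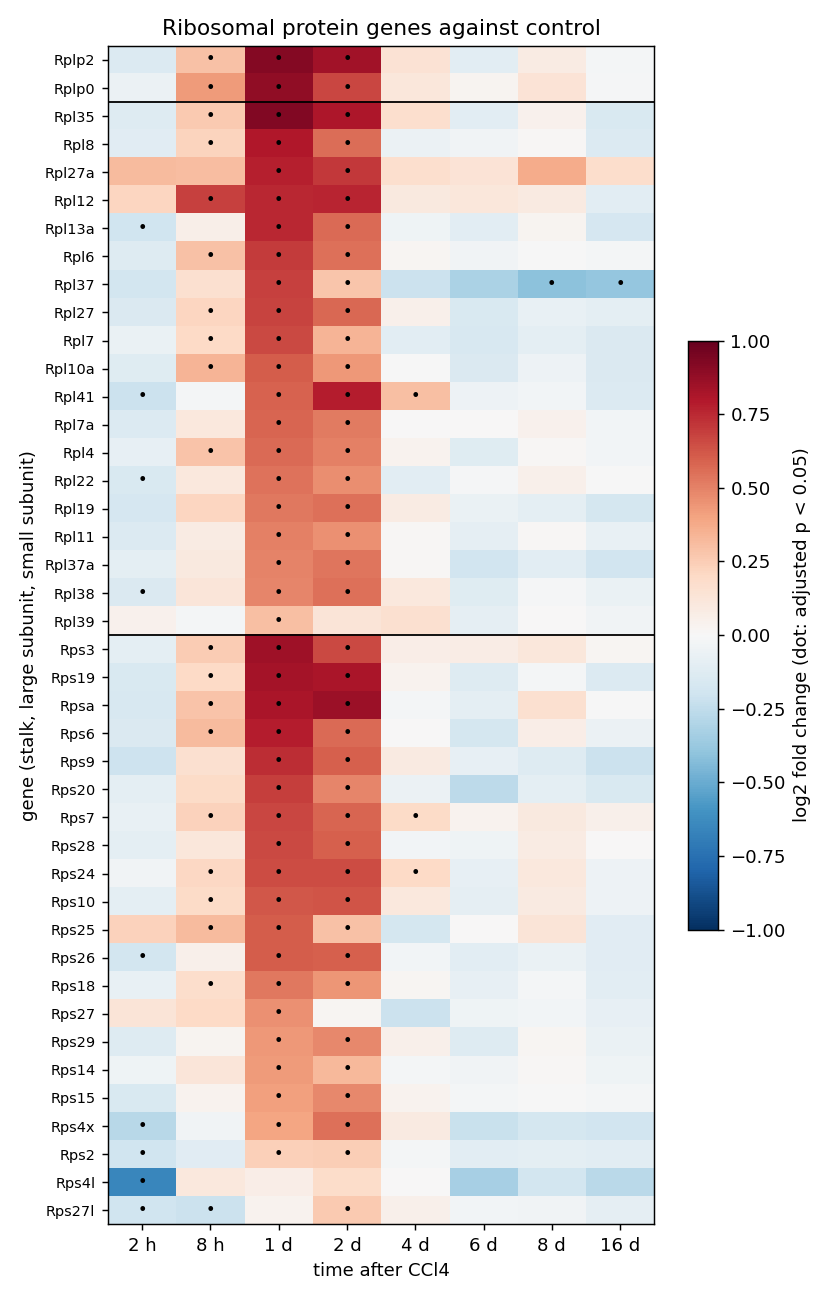
Log2 fold change against control (colour) of the 42 tested ribosomal protein genes (rows, by stalk, large and small subunit) at 8 times after CCl4 (columns), with a dot where the limma adjusted p was under 0.05. Dots fill the columns at 1 d (40 genes) and 2 d (39), while 3 genes have one at 4 d.

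The mean log2 value over these genes on each array shows the same course. It ran from 10.34 to 10.44 on the 5 control arrays, from 10.20 to 10.39 at 2 h and from 10.44 to 10.63 at 8 h. At 1 d it ran from 10.84 to 11.01 and at 2 d from 10.77 to 11.06, so that no array at either time overlapped a control array. At 4 d it was 10.35 to 10.52, at 6 d 10.27 to 10.33, at 8 d 10.34 to 10.44 and at 16 d 10.30 to 10.36. Every array at 6 d lay below every control array. The 28 genes with their largest mean at 1 d and the 14 with it at 2 d make up all 42.

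**Figure D2:**
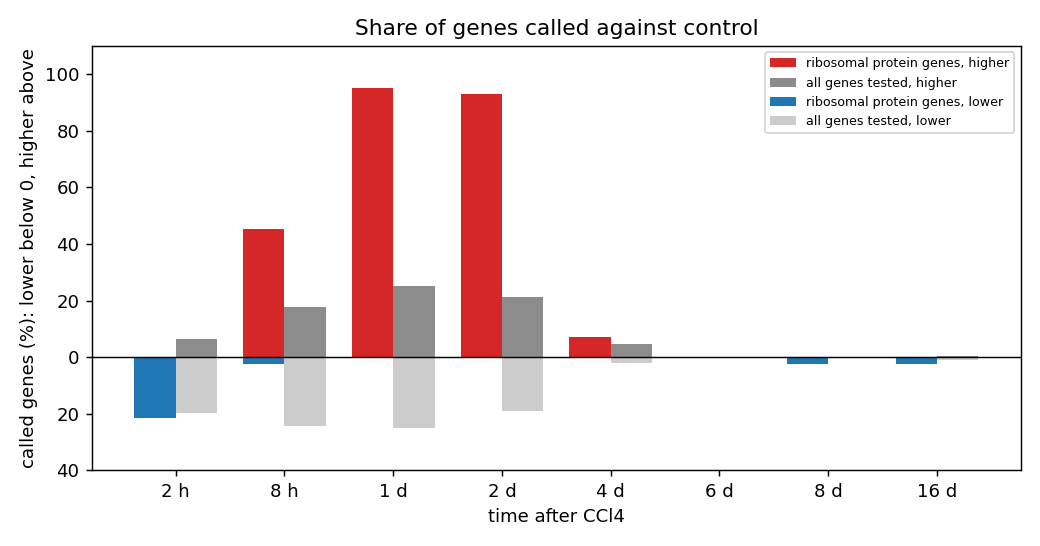
Percent of tested genes called higher (above 0) or lower (below 0) than control by limma at each time, for the 42 ribosomal protein genes (colour) and all 13239 tested genes (grey). At 1 d the share called higher is 95.2% of the ribosomal protein genes and 25.0% of all genes, and from 6 d on both kinds of bar are close to 0.

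The acidic stalk of the large subunit, which recruits elongation factors, was read through Rplp0 and Rplp2. Rplp2 had log2 values of 11.23, 11.26, 11.34, 11.34 and 11.35 in controls, and 12.16, 12.20, 12.21, 12.25 and 12.29 at 1 d. At 8 h its values were 11.44 to 11.72 and at 2 d 11.98 to 12.32, so all 3 groups lay above the controls without overlap. Its log2 fold change was 0.30 ± 0.07 at 8 h, 0.92 ± 0.07 at 1 d (1.89-fold, adjusted p = 1.26e-13) and 0.84 ± 0.07 at 2 d. Rplp0, the base of the stalk, moved from 11.69 to 11.83 in controls to 12.45 to 12.69 at 1 d. It rose by 0.43 ± 0.06 at 8 h, 0.89 ± 0.06 at 1 d and 0.67 ± 0.06 at 2 d, and it fell between 1 d and 2 d (-0.22 ± 0.06, adjusted p = 0.00212).

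Among the 19 tested large subunit genes all were called higher at 1 d, 18 at 2 d and 8 at 8 h, with a median of 0.60 at 1 d. Of all tested genes 25.0% were called higher at 1 d, 21.1% at 2 d and 17.7% at 8 h. Rpl35, whose protein lies at the exit of the nascent peptide tunnel, changed most. It was read at 11.43, 11.54, 11.55, 11.60 and 11.66 in controls, at 12.39, 12.42, 12.47, 12.52 and 12.59 at 1 d, and at 12.22 to 12.58 at 2 d. The 5 arrays at 1 d all lay above the 5 controls, by 0.92 ± 0.07 on average (1.90-fold, adjusted p = 7.83e-14). Rpl8 followed with 0.80 ± 0.07 at 1 d. Rpl12, a protein of the stalk base, was read by a dim probe set (mean 6.71). It rose early, by 0.69 ± 0.16 at 8 h and 0.76 ± 0.16 at 1 d, with values of 6.24 to 6.57 in controls and 6.93 to 7.39 at 8 h. Its step between 8 h and 1 d was not called, and array 2 at 1 d lay at 6.82 while the other 4 lay at 7.23 to 7.34. Rpl41, the smallest of these proteins, was still higher at 4 d. It was 12.15 to 12.31 in controls, 12.79 to 12.90 at 1 d, 12.81 to 13.13 at 2 d and 12.36 to 12.71 at 4 d, which is above every control array at all 3 times.

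The 21 tested small subunit genes included 19 called higher at 1 d and 19 at 2 d, with a median of 0.61 at 1 d and 0.55 at 2 d. The shares of all tested genes called higher were 25.0% and 21.1%. At 8 h 9 of the 21 were called higher and 1 lower, against 17.7% and 24.2% of all tested genes. Rpsa, which is also known as the laminin receptor, was 11.55, 11.64, 11.64, 11.73 and 11.83 in controls, 12.41 to 12.57 at 1 d and 12.29 to 12.73 at 2 d. It rose by 0.81 ± 0.08 at 1 d and 0.86 ± 0.08 at 2 d (1.81-fold, adjusted p = 6.53e-12), with all arrays above control. Rps19, a gene mutated in Diamond-Blackfan anaemia, rose by 0.83 ± 0.08 and 0.81 ± 0.08 at these times. It was 10.66 to 10.87 in controls, 11.43 to 11.73 at 1 d and 11.38 to 11.92 at 2 d. Rps3, a protein at the mRNA entry channel, rose by 0.85 ± 0.07 at 1 d, and Rps6, the substrate of S6 kinase, by 0.78 ± 0.08. The small-subunit gene with the smallest called rise at 1 d was Rps2, at 0.23 ± 0.05, with values of 12.45 to 12.63 against 12.23 to 12.36 in controls.

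**Figure D3:**
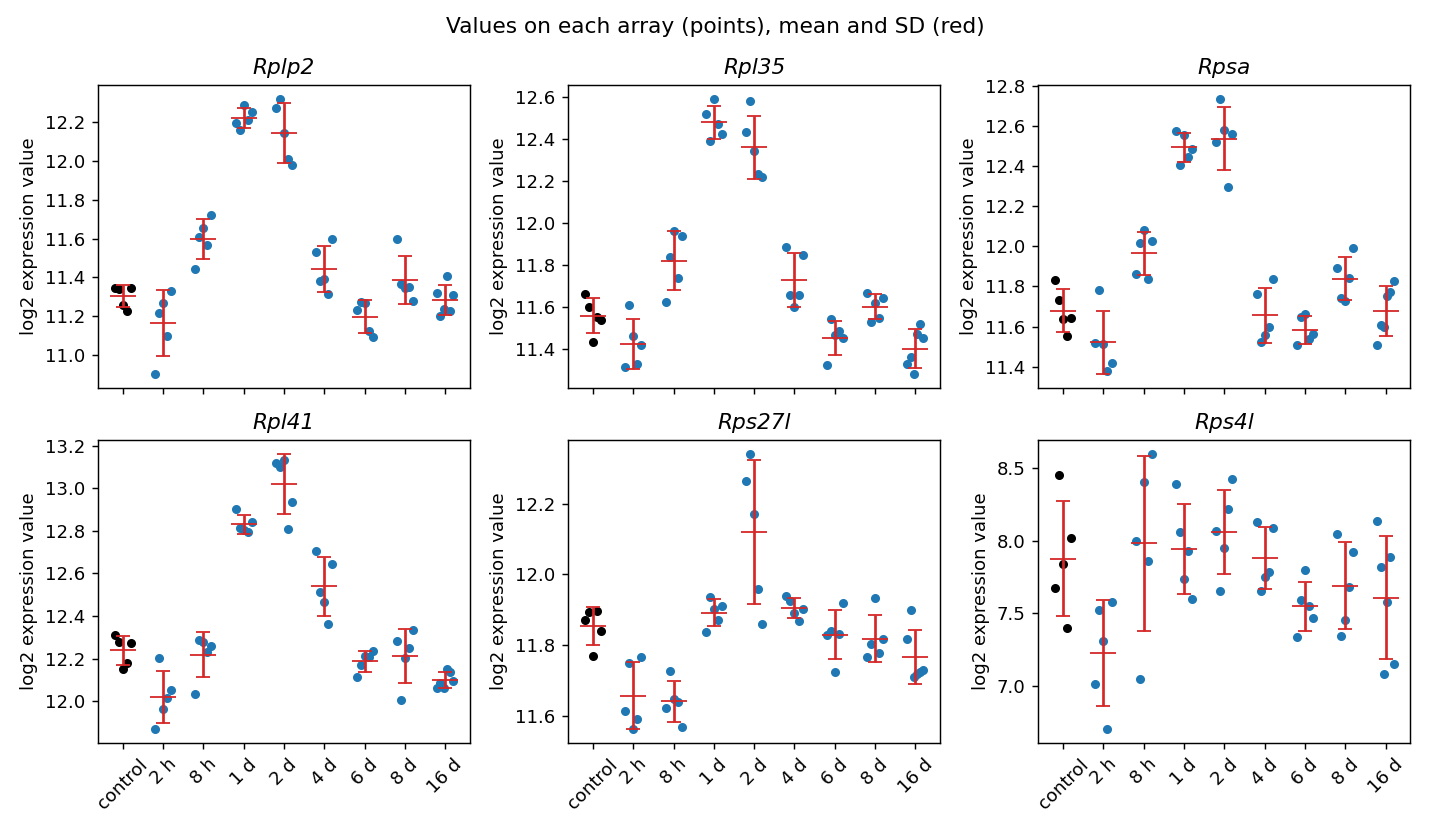
Log2 expression value on each array (points, controls in black) with the group mean and SD (red) for 6 ribosomal protein genes at control and 8 times after CCl4; each panel has its own axis, which does not start at 0. Rplp2, Rpl35, Rpsa and Rpl41 have all arrays at 1 d and 2 d above the controls, whereas the Rps27l values at 1 d (11.84 to 11.94) and the Rps4l values overlap the controls.

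The sequence around the annotated start of transcription was set beside these changes, because TOP mRNAs begin with a pyrimidine run. RefSeq promoter sequences (GRCm38.p6) were found for 40 of the 46 genes, and 7 of these have more than 1 annotated start. Counts below take the longest run, and any motif match, over the starts of a gene. Rps27l has 2 starts, and its line shows 1 of them. Each line below runs from 30 bases before to 15 bases after the start, 5′ to 3′ on the gene's strand, with the longest run of C and T that overlaps the stretch from -10 to 20 of the start in capitals, whole even where it begins outside that stretch. The genes shown include the 2 with the largest rise at 1 d (Rpl35 and Rplp2), 3 others called higher at 1 d (Rps6, Rps10 and Rpl38) and 3 that rose less or did not pass (Rps27, Rpl39 and Rps27l). Every gene shown has a run of at least 7 pyrimidines. Genes without one are not shown, such as Rps3 and Rpsa, which rose by 0.85 and 0.81 at 1 d.
Rpl35 (chr2:39005117-39005161, minus strand): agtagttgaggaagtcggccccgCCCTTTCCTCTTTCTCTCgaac
Rplp2 (chr7:141447621-141447665, plus strand): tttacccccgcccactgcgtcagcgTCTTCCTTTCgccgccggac
Rps6 (chr4:86857353-86857397, minus strand): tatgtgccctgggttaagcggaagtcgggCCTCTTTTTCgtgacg
Rps10 (chr17:27635230-27635274, minus strand): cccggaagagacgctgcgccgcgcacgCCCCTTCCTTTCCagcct
Rpl38 (chr11:114668550-114668594, plus strand): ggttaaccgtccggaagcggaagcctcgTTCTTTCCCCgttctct
Rps27 (chr3:90213634-90213678, minus strand): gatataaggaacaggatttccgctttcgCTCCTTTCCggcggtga
Rpl39 (chrX:37085208-37085252, minus strand): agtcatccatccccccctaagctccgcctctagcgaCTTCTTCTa
Rps27l (chr9:66946056-66946100, plus strand): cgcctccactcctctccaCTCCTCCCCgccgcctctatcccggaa

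In Rplp2, Rps6, Rps10, Rpl38 and Rps27 the run starts 1 to 5 bases before the annotated start and crosses it. At the Rps27l start shown, the run begins 12 bases before and ends ahead of it. A run of at least 7 pyrimidines overlapping that stretch was present for 25 of 40 genes (62.5%), against 27.8% of the 27025 genes in the table. The 23 tested genes with such a run had a median log2 fold change of 0.61 at 1 d, and the 13 without had 0.66. Over the 300 bases from 250 before to 50 after the start, both strands, the ETS core CCGGAAG was in 50% of the ribosomal protein promoters and in 9.93% of all promoters (17.9% of those of tested genes). The YY1 core AAGATGG was in 17.5% and 7.28%. These are matches of letters, not measured binding.

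At 2 h the genes were slightly below control as a group, with a median of -0.13, while the median of all genes was -0.03. Of the 42, 0 were called higher and 9 lower, against 6.41% and 19.9% of all genes (8.73% and 14.4% after quantile normalization, 9.33% and 10.3% after cyclic loess), so the share called lower was near the background. This direction depends on the scaling, since with cyclic loess 2 genes were called higher, 0 lower, and the median was 0.076. At an unadjusted p under 0.05 2 genes were higher and 18 lower. The count of lower genes was 16 without array 2 at 2 h and 5 without array 1 or array 4. Rps4x, the X-linked copy of the Rps4 gene, was 11.83 to 12.15 at 2 h and 12.05 to 12.34 in controls, so the ranges overlapped (-0.27 ± 0.07, adjusted p = 0.00291). Rpl41 (-0.22 ± 0.07) overlapped as well. The genes below every control array were Rps2 (-0.20 ± 0.05), Rps26 (-0.18 ± 0.05) and Rps27l (-0.20 ± 0.06), and 14.9% of all genes were so placed.

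The rise began between 2 h and 8 h. In that step 36 genes rose and 0 fell, against 20.4% and 15.4% of all genes, with a median of 0.27 (0 fell also at an unadjusted p under 0.05). Against control 19 genes were called higher at 8 h and 1 lower, against 17.7% and 24.2%, with a median of 0.19. Cyclic loess gave 37 higher and 0 lower of 43 tested genes at 8 h. The largest rises at 8 h were Rpl12 (0.69 ± 0.16), Rplp0 (0.43 ± 0.06) and Rpl10a, a protein of the L1 stalk (0.34 ± 0.07), and in these genes all arrays lay above the controls. The 1 gene called lower at 8 h was Rps27l. All 19 genes called higher at 8 h were also called at 1 d and 2 d, and 21 genes were called higher at 1 d and not at 8 h.

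Between 8 h and 1 d 40 genes rose and 0 fell, against 20.8% and 10.9% of all genes, with a median of 0.43, and Rpl12 and Rps4l were not called. Between 1 d and 2 d the genes parted, with 2 higher and 11 lower (17.4% and 15.0% of all genes). Rpl41 (0.19 ± 0.07) and Rps27l (0.23 ± 0.06) rose. Rps27 (-0.44 ± 0.09), Rpl37 (-0.40 ± 0.09), Rpl7 (-0.32 ± 0.06) and Rps25 (-0.32 ± 0.11) fell most. Rpl7 was 12.11 to 12.34 at 1 d and 11.83 to 12.19 at 2 d, with 1 array at 2 d inside the 1 d range. These 13 calls became 8 without array 3 at 1 d or without array 1 or 3 at 2 d, and 3 with a fit of only both groups. Leaving out arrays 1 and 2 at 1 d, which an earlier analysis of these data set apart, gave 12 calls, and 40 genes higher at 1 d with a median of 0.66.

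Between 2 d and 4 d 40 genes fell and 0 rose, against 17.9% and 13.4% of all genes, with a median of -0.50. Rpsa fell by 0.88 on the log2 scale to values of 11.52 to 11.84, against 11.55 to 11.83 in controls. Rps19 (-0.78 ± 0.08) and Rplp2 (-0.70 ± 0.07) followed, and Rpl39 and Rps4l were not called. At 4 d 3 genes were called higher than control, against 4.74% of all genes, and 0 were below (3 at an unadjusted p under 0.05, and 2.21% of all genes). They were Rpl41 (0.30 ± 0.07, adjusted p = 0.00242), Rps24 (0.20 ± 0.06, 0.0438) and Rps7 (0.19 ± 0.06, 0.0419). The Rps24 arrays at 4 d lay at 11.95 to 12.21, against 11.67 to 12.01 in controls, and the Rps7 arrays at 12.12 to 12.28, against 11.90 to 12.13. Both overlapped the controls. The Rps24 call was lost with every scaling, filter or model alternative tried except the stricter filter, and its value turned to -0.063 without _x_at and _s_at probe sets. The Rps7 call was lost with cyclic loess, no filter, the mean of all probe sets, a fit of only both groups, the replicate block and the Gapdh covariate. The Rpl41 call was lost with the mean of all probe sets (0.14). Among the 3 genes 1 call was left without array 1 or 5 at 4 d or without control array 3, 4 or 5. Between 4 d and 6 d 10 genes fell and 0 rose (7.30% and 3.51% of all genes; 6 fell without array 1 or 5 at 4 d), led by Rpl41 (-0.35 ± 0.07) and Rps4x (-0.31 ± 0.07).

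From 6 d on the genes stood near control. The mean over all 46 genes was nonetheless lower on every 6 d array (10.27 to 10.33) than on every control array (10.34 to 10.44). The median log2 fold change at 6 d was -0.088, and -0.037 with cyclic loess. At 6 d limma called 0 of 42 in either direction, against 0.0227% of all genes higher and 0% lower, with 0 higher and 11 lower at an unadjusted p under 0.05. At 8 d 1 gene was lower and 0 higher (0.0755% and 0.0680% of all genes), and at 16 d 1 was lower and 0 higher (1.10% and 0.415%). At an unadjusted p under 0.05 3 were higher and 2 lower at 8 d, and 0 and 11 at 16 d. That 1 gene was Rpl37 both times, a large subunit protein with a zinc finger. Rpl37 was read only by a probe set ending in _x_at, which can read near-identical copies. It was read at 9.31 to 9.40 in controls, 8.83 to 9.05 at 8 d and 8.80 to 9.17 at 16 d, with no overlap, after 9.89 to 10.18 at 1 d. The differences were -0.41 ± 0.09 (adjusted p = 0.0324) at 8 d and -0.39 ± 0.08 (0.0165) at 16 d. The call at 8 d was lost without array 3, 4 or 5 at 8 d or any 1 of control arrays 2 to 5, and with arrays shifted to the same median (-0.42). That at 16 d was lost without control array 5 and with cyclic loess (-0.29). Between 6 d and 8 d limma called 0 of 42 in either direction (0.00755% of all genes higher and 0% lower), with 12 higher and 0 lower at an unadjusted p under 0.05. Between 8 d and 16 d it again called 0 of 42 (0% of all genes in either direction), with 0 higher and 8 lower at an unadjusted p under 0.05.

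Rps27l and Rps4l were not called at 1 d, and Rps27 and Rpl39 were called at 1 d but not at 2 d. Rps27l, a paralog of Rps27 that is known as a p53 target, was 11.77, 11.84, 11.87, 11.89 and 11.90 in controls, 11.56 to 11.77 at 2 h, 11.57 to 11.73 at 8 h and 11.84 to 11.94 at 1 d. It was called lower at 2 h and 8 h (-0.20 ± 0.06 and -0.21 ± 0.06, adjusted p = 0.0162 and 0.00462), but neither call held with cyclic loess, which gave 0.012 at 2 h and -0.045 at 8 h. The 2 h call was also lost with quantile normalization (-0.15) and without array 3 at 2 h (-0.17). Its 1 d value was not called (0.04 ± 0.06, adjusted p = 0.639), and at 2 d it was higher (0.26 ± 0.06), with 11.86 to 12.34. Rps4l, a copy related to Rps4x, was lower at 2 h (-0.65 ± 0.22, adjusted p = 0.0239) and was not called at the other times. Its arrays spread widely, over 7.40 to 8.45 in controls and 6.71 to 7.58 at 2 h, and the ranges overlapped. The 2 h call was lost with cyclic loess (-0.54), with the Gapdh covariate (-0.65), and without array 1 (-0.60) or 4 (-0.52) at 2 h or control array 2 (-0.51) or 5 (-0.61). Rps27, read by a dim probe set, was higher at 1 d (0.45 ± 0.09) and not at 2 d (0.02 ± 0.09), with values of 7.01 to 7.19 in controls and 6.98 to 7.29 at 2 d. Rpl39, a small protein of the exit tunnel, rose by 0.30 ± 0.06 at 1 d and was not called at 2 d (0.13 ± 0.06, adjusted p = 0.0766), although it was called with arrays shifted to the same median (0.17), with cyclic loess (0.17) and without array 3 at 2 d (0.16).

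Whether a paralog moved unlike the gene it derives from was tested on the difference of the log2 values within each array, with two-sided exact permutation tests adjusted over 16 tests. The genes of a pair are read by probe sets of unlike brightness (means of 11.83 for Rps27l and 7.16 for Rps27). Whether such probe sets respond equally to an equal change of mRNA was not tested. For 5 arrays against 5 the smallest p is 0.00794. Rps27l minus Rps27 was 4.74 ± 0.04 (SD, n = 5) in controls, and it changed by -0.33 at 2 h and by -0.42 at 8 h (exact permutation, adjusted p = 0.0212 each). It changed by -0.42 at 1 d (0.0952, not called), 0.25 at 2 d (0.152, not called) and 0.27 at 4 d (0.0212), each by exact permutation. The differences at 2 h and 8 h depend on the scaling, since neither passed with cyclic loess (-0.18 and -0.28), and that at 2 h did not pass without _x_at and _s_at probe sets (-0.32). Rpl22l1, a paralog of Rpl22 that the symbol rule leaves out, minus Rpl22 changed by 0.66 at 8 h, 0.42 at 2 d and 0.61 at 4 d (exact permutation, adjusted p = 0.0212 each). At 2 h (0.35, adjusted p = 0.0544) and 1 d (0.49, 0.141) the exact permutation test did not pass. Rpl22l1 itself rose by 1.03 ± 0.16 at 1 d (2.04-fold) and Rpl22 by 0.54 ± 0.05. From 6 d on neither pair passed (exact permutation, adjusted p from 0.289 to 0.960). Of other relatives outside the rule, Rpl7l1 rose by 0.60 ± 0.11 and Fau, which encodes a ubiquitin-like fusion with Rps30, by 0.37 ± 0.06 at 1 d.

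Ribosomal protein genes have many processed pseudogenes, and probe sets with the endings _x_at and _s_at can read near-identical copies. The probe set used ended in _x_at for 14 of the 46 genes and in _s_at for 2, so values of these genes are uncertain in that respect. For 19 of the genes a further 44 probe sets passed the filter. Of these 37 were higher and 7 lower on average at 1 d, with a median difference of 0.59. Rpl22, for example, had a second probe set at 0.58 and a dimmer one (mean 7.49) at -0.21 at 1 d. For Rps3 a probe set with a mean of 7.32 gave -0.26 and one with a mean of 5.66 gave 1.45, against 0.85 for the one used. A further Rpl13a probe set (mean 8.51) gave 1.59, against 0.76 for the one used. A further 24 genes of the symbol rule were read only by probe sets shared with copies. All 24 were higher at 1 d (median 0.63, from 0.40 to 0.93) and all at 2 d (median 0.53), led at 1 d by Rps15a (0.93 ± 0.08), Rps12 (0.92 ± 0.09) and Rps23 (0.90 ± 0.07).

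Other groups of the protein synthesis pathway were described with the same fit, and their counts stand beside shares over all tested genes of 17.7% higher and 24.2% lower at 8 h, 25.0% and 25.1% at 1 d, and 21.1% and 18.9% at 2 d. Of 23 ribosome assembly factors, which process and fold the precursor subunits, 22 rose at 8 h with a median of 1.03, then 21 at 1 d (0.83) and 9 at 2 d (0.35), and 0 fell at these times. Nop58, of the nucleolar box C/D particles, rose by 2.76 ± 0.25 and Tsr1, of small subunit assembly, by 2.32 ± 0.25 at 8 h. Of 17 tested genes in a list of translation factors and a few other genes whose mRNAs are also known to carry TOP tracts, 10 rose at 8 h, 17 at 1 d (median 0.57) and 11 at 2 d (0.27), with 1 lower at 2 d. Npm1, a nucleolar chaperone, rose by 1.71 ± 0.13 and Pabpc1, the poly(A)-binding protein, by 0.96 ± 0.08 at 1 d.

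Chaperones and importers of single ribosomal proteins rose in 5 of 11 at 8 h, 10 at 1 d and 2 at 2 d. At 1 d Nap1l1, a histone chaperone, was higher by 1.14 ± 0.10 and Ipo7, an importin, by 1.07 ± 0.12. Of 16 regulators of ribosomal protein synthesis 11 were higher and 2 lower at 1 d, among them Myc (2.11 ± 0.32) and Eif4ebp1, a translation repressor under mTOR (1.53 ± 0.18). Among the 76 mitochondrial ribosomal protein genes, 43 were lower and 0 higher at 2 h (19.9% and 6.41% of all genes, and 0 higher also at an unadjusted p under 0.05). At 8 h 11 were higher (17.7% of all genes) and 31 lower (24.2%). At 1 d 30 were higher (25.0%) and 12 lower (25.1%), and at 2 d 38 were higher (21.1%) and 0 lower (18.9%). Mrpl18 and Mrps15 were lower by most at 2 h, at -0.59 ± 0.11 and -0.52 ± 0.10. Their median at 1 d was 0.12 where that of the cytosolic genes was 0.61, and this difference of groups was not tested.

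**Figure D4:**
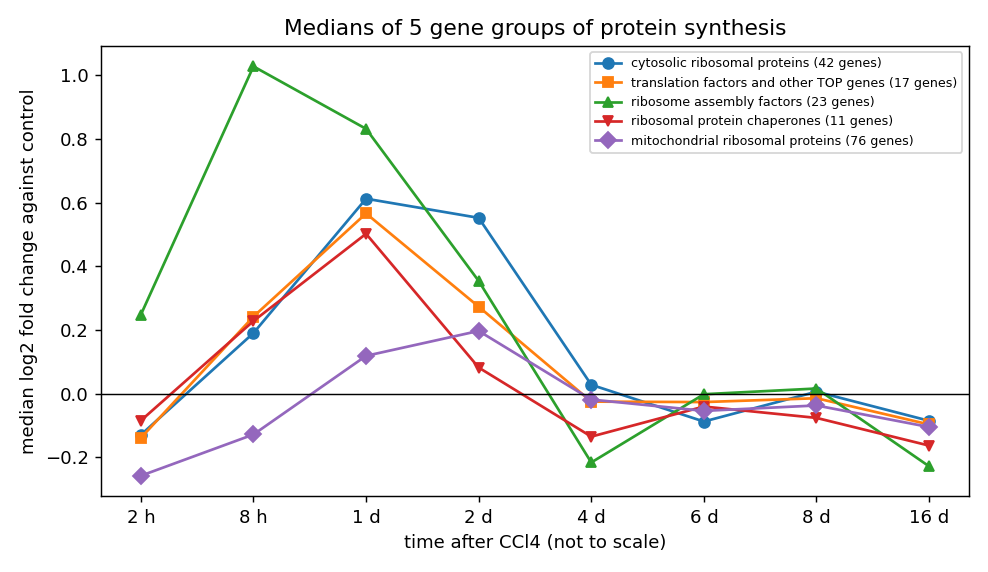
Median log2 fold change against control of 5 groups of protein synthesis genes at 8 times after CCl4 (times equally spaced). The ribosome assembly factors have their highest median at 8 h (1.03), the cytosolic ribosomal proteins at 1 d (0.61) and the mitochondrial ribosomal proteins at 2 d (0.20).

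Some marker mRNAs of several cell types also differed from control at these times, and whether cell numbers or the markers' level per cell differed cannot be told apart. Over all tested genes 17.7% were higher and 24.2% lower at 8 h, and 25.0% and 25.1% at 1 d. At 2 d the shares were 21.1% and 18.9%. The counts of markers were not tested against these shares, and some are near them. Of 6 tested hepatocyte markers 4 were lower at 1 d and 1 at 2 d, with a summed log2 level of 16.60 to 16.73 in controls, 16.48 to 16.65 at 1 d and 16.65 to 16.70 at 2 d. For monocyte-derived macrophages 2 of 6 tested markers were higher at 1 d and 4 at 2 d, and the sum went from 8.59 to 8.74 in controls to 10.4 to 12.8 at 1 d and 9.61 to 12.6 at 2 d. Log2 fold changes of the 6 ran from -0.09 to 5.20 at 1 d (median 0.48) and from -0.08 to 4.12 at 2 d (median 0.93). The sum adds unlogged levels, so a single strongly changed marker can carry it. Neutrophil markers were higher in 2 of 4 at both times, with a sum of 8.03 to 8.35 in controls, 8.67 to 10.6 at 1 d and 8.45 to 9.31 at 2 d. Their log2 fold changes ran from -0.22 to 3.25 at 1 d (median 1.10). Activated stellate cell markers were higher in 3 of 6 at 1 d and 6 at 2 d (9.15 to 9.75 in controls and 10.42 to 12.03 at 2 d), and cycling markers in 0 of 5 at 1 d and 5 at 2 d (7.97 to 8.49 and 10.3 to 12.2). Of 7 resident Kupffer cell markers 1 was higher and 2 lower at 1 d, and of 6 endothelial markers 1 was higher and 3 lower. Of 2 tested erythroid markers 2 were lower at 1 d and 2 at 2 d. At 8 h 6 of the Kupffer cell, 4 of the endothelial, 2 of the hepatocyte, 1 of the stellate cell and 1 of the erythroid markers were lower. At that time 1 endothelial marker was higher. The macrophage, neutrophil and cycling markers had 0 calls in limma at 8 h (at an unadjusted p under 0.05 1 cycling marker was lower). The part of these cells in the rise of the ribosomal protein genes was not tested.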

How the data were processed

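Per the labels' protocols, cDNA was primed with oligo-dT from liver RNA, turned into biotin-labelled cRNA and hybridised to Affymetrix mouse arrays. The authors deposited log2 expression values. The submitters' processing notes name oligo 1.52.0 and RMA, a method that normalizes quantiles across arrays, so a shift common to most genes is removed. Of 45101 probe sets, the 34945 that name 1 gene were used. The filter asked for a value above 5.56, the median over the files, on 5 arrays or more in the gene's brightest probe set, and 13239 genes passed. limma 3.58.1 in R 4.3.3 fitted 9 group means to all 46 arrays in 1 model. Each of the 8 times was compared with control and with the time before it, and Benjamini-Hochberg adjustment ran over all tested genes in a contrast. Genes named are the largest called changes at each time, those with the highest and lowest mean, a panel of paralogs and the largest changes of each list; others were chosen after their values were seen. Members and lists were chosen with earlier results of these data known. The fit was tested on simulated data. The number of arrays limits the precision. The alternatives covered scaling, the filter, the choice of probe set, fits of only both groups, the variance model, a Gapdh covariate, the replicate number as a block and leaving out single arrays. Plots used Python 3.11.15, pandas 2.3.3 and matplotlib 3.10.9.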

Additional observations from a re-analysis of the deposited data

Results flagged for a closer look

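Of 207 groups of 4 to 10 arrays checked for 1 array far from the others, 15 were flagged, and chance flags about 1 in 20 (5%). Array 2 at 1 d was lowest for Rplp0 (12.4, next 12.6) and Rpl12 (6.82, next 7.23), and array 3 of the controls was highest for Rplp0 (11.8) and lowest for Rps4x (12.1, next 12.3). At 2 d array 2 was highest for Rpl22 (12.3) and Rpl37 (10.02, next 9.56), array 4 lowest for Rpl38 (12.9) and array 3 lowest for Rpl39 (6.46). At 2 h array 2 was highest for Rpl38 (12.6) and array 3 lowest for Rpl39 (6.33). At 6 d array 1 was lowest for Rpl10a (11.9) and for the mean over all the ribosomal protein genes (10.27, next 10.32), and array 3 was highest for Rpl12 (7.08). Array 1 was lowest at 8 h for Rpl41 (12.03) and highest at 8 d for Rplp2 (11.6).

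Opposite calls at 2 h and 1 d flagged 7 genes (Rpl13a, Rpl22, Rpl38, Rpl41, Rps2, Rps26 and Rps4x). They were lower at 2 h and higher at 1 d, and the difference between 1 d and 2 h was called in limma for all 7. Rps27l and Rpl37 had opposite calls at other pairs of times, as given above, and are not among the 7. With cyclic loess 0 of the 43 ribosomal protein genes then tested, and so none of the 7 flagged, were called lower at 2 h. A signal outside the tested genes was the median of 0.63 at 1 d over the 24 genes read only by probe sets shared with copies.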

How the results depend on the processing

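Over all alternatives 879 of the counts, medians and paralog differences were taken as the same. A count was so taken within a factor of 1.5 of the reported one, and a median within 1 SD between arrays. Beyond these limits 57 counts or medians moved, and of the paralog differences 19 lost and 4 gained a call. The count of genes higher was 31 to 41 at 1 d and 30 to 41 at 2 d. It was lowest where _x_at and _s_at probe sets were left out and 35 genes were tested. Arrays shifted to the same median, quantile normalization and cyclic loess each had 43 genes tested. With arrays shifted to the same median 41 of the 43 were higher at 1 d and at 2 d, and with cyclic loess 41 at 1 d. Where a value moved, the cause was not tested. At 2 h 1 gene was higher with quantile normalization, the mean of all probe sets and only the groups compared, and 2 with cyclic loess; 4 were lower with quantile normalization and without _x_at and _s_at probe sets, and 0 with cyclic loess. At 8 h cyclic loess gave 37 higher and 0 lower, and quantile normalization 2 lower. Without those probe sets 1 was lower at 2 d. At 4 d 1 was higher with cyclic loess, no filter, those probe sets left out, only both groups, the replicate block or the Gapdh value, 0 with the mean of probe sets, and 1 was lower with quantile normalization or only both groups. At 8 d 0 were lower with arrays shifted to the same median or without those probe sets, and at 16 d 0 with cyclic loess or without them, and 1 was higher with no filter. Leaving those probe sets out removes Rpl37, the gene called lower at 8 d and 16 d, so it cannot test those calls. Between 1 d and 2 d only both groups gave 3 calls, and between 4 d and 6 d cyclic loess 6. Medians with cyclic loess were 0.076 at 2 h, 0.34 at 8 h, 0.44 at 2 d, -0.037 at 6 d and 0.0011 at 16 d; with quantile normalization 0.55 at 1 d and -0.023 at 16 d; and 0.55 at 1 d with the mean of probe sets. Rps27l minus Rps27 did not pass with cyclic loess at 2 h (-0.18) and 8 h (-0.28) or at 2 h without _x_at and _s_at probe sets (-0.32), nor did Rpl22l1 minus Rpl22 at 2 d (0.38) without them. With cyclic loess the 2 h values turned to 0.017 for Rpl13a, 0.060 for Rpl22, 0.068 for Rpl38 and 0.012 for Rps27l, and without _x_at and _s_at probe sets Rps24 at 4 d to -0.063. Leaving out each array gave 0 to 1 higher and 5 to 16 lower at 2 h, 1 to 3 higher at 4 d, 0 to 1 lower at 8 d and 16 d, 8 to 16 calls between 1 d and 2 d and 6 to 12 between 4 d and 6 d. It gave -0.37 to -0.24 at 2 h, -0.47 to -0.39 at 8 h, -0.54 to -0.36 at 1 d and 0.17 to 0.35 at 2 d for Rps27l minus Rps27, and 0.29 to 0.41 at 2 h, 0.40 to 0.66 at 1 d and 0.55 to 0.68 at 4 d for Rpl22l1 minus Rpl22. Whether same-numbered arrays of different groups share more than a number is not known. Their deviations from group means had a median r of 0.0093 over 180 pairs (from -0.27 to 0.37, 40 over 0.1). Among the 46 arrays 12 correlated best with their own number. With the replicate block 8 genes were lower at 2 h, 18 higher at 8 h, 40 at 1 d, 39 at 2 d and 1 at 4 d. At 16 d 0.681% of all genes were higher and 0.583% lower with quantile normalization, and 0.324% and 0.362% with cyclic loess. Calls on dim probe sets such as those of Rpl12, Rps27 and Rpl39 are limited by signal over background. The fit without arrays 1 and 2 at 1 d was chosen after seeing the data.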
